A study of Rattus norvegicus with 12 samples.

Results

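The genes described here are 10 members of the NF-kB pathway, the 4 Rel family subunits Nfkb1, Nfkb2, Rela and Relb, the inhibitors and feedback regulators Nfkbia, Nfkbie, Nfkbiz, Bcl3 and Tnfaip3, and the target gene Icam1. They were chosen by symbol, and 10 of the 10 symbols looked for were among the 9721 genes of the deposited table. All 10 also passed the filter on low counts, with at least 107 estimated counts in every library. The cells were wild-type primary astrocytes from the midbrain of newborn SD (Sprague-Dawley) rats, cultured in DMEM with fetal bovine serum and antibiotics. There were 4 groups of 3 libraries, a control group taken at 0 h and groups taken 1.5, 3 and 6 h after 10 µM PT109B, a compound known here only by its code name. The groups shared the medium and serum, and no vehicle is named in the labels. With the only control at 0 h, effects of the compound, of a vehicle and of time or handling cannot be told apart. RNA was sequenced to follow the transcripts over the first hours of treatment, in a series concerned with turning astrocytes into dopaminergic neurons.

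NF-kB is a family of transcription factors that act as dimers of Rel proteins and are held in the cytoplasm by IkB proteins. In the canonical route, cytokine or Toll-like receptors activate the IkB kinase complex, IkB is degraded and dimers such as RelA with p50, the product of Nfkb1, enter the nucleus. In the noncanonical route the product of Nfkb2 is processed to p52, which pairs with RelB. Several pathway genes are themselves NF-kB targets, so that the pathway feeds back on itself, and in astrocytes it is known for driving cytokines, chemokines and adhesion molecules during inflammation.

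Because the members include known targets of NF-kB, the promoter windows of the RefSeq genes of these names (GRCr8) were searched for its motif, from 250 bases before to 50 bases after the start site. Windows were found for 9 of the 10 members, all but Relb, matched by symbol. The motif GGGANNTTC, the core of the NF-kB consensus read on both strands, was in 5 of these 9 windows and in 4.05% of all 33469 windows. The motif GGAAATTCC, a variant read in the same way, was in 4 of the 9 and in 0.332% of all windows. In Nfkb1, Nfkbia and Nfkbiz both motifs matched at overlapping positions, and in Icam1 only the variant matched. The AP-1 motif TGANTCA was found for Nfkb2, Nfkbie and Tnfaip3, 3 of the 9, and in 7.33% of all windows. The motifs were chosen with the members known, and a match is a match of letters, not a site shown to be bound. The match nearest the start of each gene is printed here with 8 bases on each side, along the gene's strand, so that the shared letters can be compared. Capitals mark GGGANNTTC or its reverse, and in Icam1 GGAAATTCC.
Nfkb1, chr2:226805443-226805467, minus strand: acgtcagtGGGAATTTCcagccagg
Nfkb2, chr1:255108346-255108370, plus strand: gtattttcGGGACTTTCctaagagc
Nfkbia, chr6:78597086-78597110, minus strand: ctggcttgGAAATTCCCcgcgcctg
Nfkbiz, chr11:58251700-58251724, plus strand: tttggcctGGGAATTTCcagcgtgt
Tnfaip3, chr1:15544029-15544053, minus strand: cgtgactgGAAAGTCCCtcggaaat
Icam1, chr8:27829619-27829643, plus strand: ttcagtttGGAAATTCCtgggtcgc

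Nfkb1, Nfkb2 and Nfkbiz carried this match in the direction of the gene, and Nfkbia and Tnfaip3 carried it on the other strand. It began at -20 from the start site in Nfkb2, at -13 in Nfkbiz, at -30 in Nfkbia and at -66 in Tnfaip3, and at position 4 past the start in Nfkb1. The variant in Icam1 lay farther away, from -218 to -210. The windows of Rela, Nfkbie and Bcl3 held neither of these motifs, though the transcripts of Rela and Nfkbie also rose. Nfkb1, Nfkbia and Nfkbiz, with both motifs, were not called against control in the main edgeR fit described below. The 250 bases before the start site are given for Nfkb2 and Icam1, a subunit gene and a target gene whose transcripts both rose after PT109B, with every match to GGGANNTTC in Nfkb2, which had another at -213, and to GGAAATTCC in Icam1 in capitals.
Nfkb2, chr1:255108124-255108373, plus strand: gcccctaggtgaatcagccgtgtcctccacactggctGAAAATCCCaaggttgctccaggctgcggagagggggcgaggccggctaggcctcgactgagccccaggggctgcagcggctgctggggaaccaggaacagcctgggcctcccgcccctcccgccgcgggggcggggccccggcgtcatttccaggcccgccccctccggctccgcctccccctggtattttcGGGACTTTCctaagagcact
Icam1, chr8:27829595-27829844, plus strand: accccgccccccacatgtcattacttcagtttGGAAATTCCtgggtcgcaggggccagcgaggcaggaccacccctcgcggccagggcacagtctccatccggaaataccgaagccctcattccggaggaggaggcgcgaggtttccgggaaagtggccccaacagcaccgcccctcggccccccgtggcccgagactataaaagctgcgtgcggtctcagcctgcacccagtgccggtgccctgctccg

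Of the libraries, 1 in each treated group stood apart from the other pair, namely replicate 3 at 1.5 h, replicate 3 at 3 h and replicate 1 at 6 h. Within the treated groups log CPM of the pair correlated across genes at 0.985 to 0.987, and the library apart correlated with the pair at 0.886 to 0.937, against 0.982 to 0.99 among controls. No libraries of a group agreed within sampling noise. The labels do not tell whether libraries are from different cultures, so every p-value here reflects the spread among libraries, and that spread may be technical. Total counts were 9368972 to 12498050 per library. Astrocyte markers (9 of 12 listed were in the table, none at 0) summed to 7211 to 10990 CPM in controls, 7520 to 11620 at 1.5 h, 7728 to 10070 at 3 h and 5709 to 7143 at 6 h, so the labelled cell type had its markers in every library. Microglia markers (17 of 17, none at 0) summed to 2954 to 3603 CPM in controls. At 1.5 h they summed to 370.5 and 363.3 CPM in the close pair and to 3814 CPM in the library apart, with 2860 to 3290 CPM at 3 h and 2534 to 3029 at 6 h. Fibroblast and meningeal markers (8 of 10, none at 0) went the other way at 1.5 h, with 5434 and 5673 CPM in the close pair and 1345 CPM in the library apart, against 1284 to 1640 CPM for the controls. Endothelial markers (8 of 10) summed to 43.5 and 38.5 CPM in that pair and 96.8 CPM in the library apart, with 67.9 to 124 CPM at 3 h and 68.8 to 101 CPM at 6 h, against 86.5 to 94.6 CPM in controls. Oligodendrocyte lineage markers (9 of 10) summed to 1245 and 1275 CPM in the close pair at 3 h, where the library apart had 763 CPM, and to 1082 and 1098 CPM in the close pair at 6 h, where the library apart had 793 CPM, against 848 to 870.4 CPM in controls. The part of these markers in the member changes was not tested. In bulk RNA, fewer cells of a type and less RNA per cell cannot be told apart.

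After PT109B, the transcripts of Nfkb2, Rela, Relb, Nfkbie and Icam1 rose at 3 h, by 1.64-fold to 1.93-fold, and at 6 h, by 1.66-fold to 2.69-fold. The 5 calls at 6 h and those of Rela and Icam1 at 3 h held in all 18 alternatives, whereas Relb at 3 h was not called in 10 of them, Nfkb2 at 3 h in 6 and Nfkbie at 3 h in 2. Tnfaip3 rose and Bcl3 fell at 6 h, calls that were lost in 12 and 6 alternatives. In the main edgeR fit, described below, Nfkb1, Nfkbia and Nfkbiz were not called against control at any time. Some alternatives did call them. Nfkbiz lay below all controls at 3 and 6 h and was called lower at 6 h in 7 of the 18 alternatives. The levels below are CPM on TMM-scaled library sizes, and changes are log2 fold changes ± SE from 1 edgeR quasi-likelihood fit over all 9491 genes tested. A gene is called changed where its Benjamini-Hochberg adjusted p is below 0.05. At 1.5 h 0 of the 10 members were called, and 3.32% of all genes were (1.95% higher and 1.37% lower). At an unadjusted p below 0.05 the members were 2, Tnfaip3 and Icam1, where 21.2% of all genes passed, and 0 were called by DESeq2. At 3 h 5 members were called higher (Nfkb2, Rela, Relb, Nfkbie and Icam1) and 0 lower, where 13.5% of all genes were called higher and 7.94% lower. At 6 h 6 members were called higher, these 5 and Tnfaip3, and Bcl3 was called lower, where the shares of all genes were 18.7% and 11.8%. The median log2 fold change of the 10 members was -0.02 at 1.5 h, 0.55 at 3 h and 0.81 at 6 h, and that of all genes tested was -0.01, -0.03 and -0.02. These comparisons share the control libraries. Counting instead the members with every treated library outside the range of the controls, 3 lay above and 0 below at 1.5 h, where 12.9% and 15.1% of all genes did. At 3 h 5 lay above and 2 below, where 23.4% and 24.3% of all genes did, and at 6 h 7 above and 2 below, where 28.2% and 27.5% did. With scaling by library size alone in place of TMM the median of all genes moved to -0.34 at 3 h and -0.24 at 6 h, and the genes called at 3 h were 650 higher and 1887 lower, against 1281 higher and 754 lower with TMM. At 6 h they were 1141 higher and 1799 lower, against 1771 and 1120 with TMM. At 1.5 h they were 165 and 216, against 185 and 130 with TMM and 194 and 84 with the size factors of DESeq2 (RLE). Of the members, 2 were then called at 3 h, Rela and Icam1. A change of scaling shifts all genes by nearly the same amount, so distances from the median of all genes hardly move by construction. Nfkb2 at 3 h lay 0.85 above it with library size scaling and 0.86 above it with TMM. This does not tell which scaling is right or whether the lost calls were real changes.

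**Figure D1:**
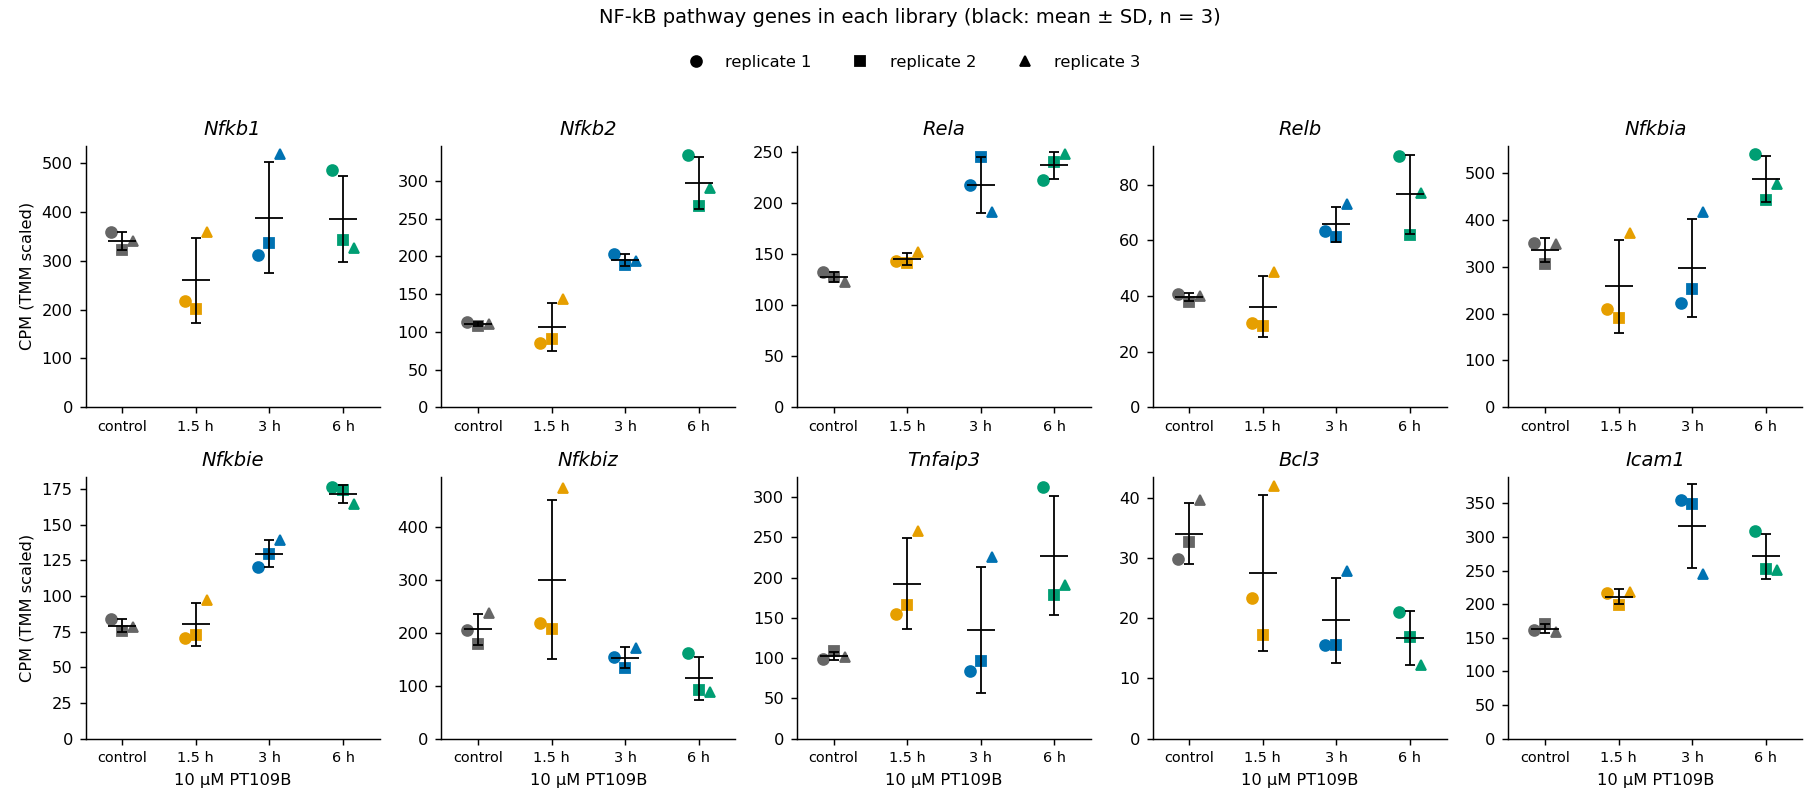
CPM (vertical axis, TMM scaled, from 0) of the 10 genes in each of the 12 libraries, by group from control to 6 h of 10 µM PT109B, with a symbol shape for each replicate and the mean ± SD of 3 libraries in black. Nfkb2, Rela, Relb, Nfkbie and Icam1 lie above every control library at 3 and 6 h, Bcl3 and Nfkbiz lie below every control library at these times, and replicate 3 at 1.5 h is the highest library of its group for all 10 genes.

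Among the subunits, the transcript of Nfkb2 (ENSRNOG00000019311), the precursor of p52, had the largest rise of the 10 members at 6 h. Its level was 112, 108 and 110.5 CPM in the controls, 85.6, 89.9 and 143 at 1.5 h, 204, 189 and 193 at 3 h, and 334, 267 and 290.2 at 6 h. All libraries at 3 h were above all controls and all libraries at 6 h above all those at 3 h, while the 1.5 h libraries lay on both sides of the controls. The log2 fold change against control was 0.82 ± 0.18 at 3 h (edgeR adjusted p = 0.0105) and 1.43 ± 0.18 at 6 h (edgeR adjusted p = 0.000423), or 1.77-fold and 2.69-fold. The call at 3 h was lost without replicate 1 or without replicate 2 of that group (edgeR adjusted p = 0.0616 and 0.0503), and with library size scaling (0.0752). At 6 h the call was kept in all 18 alternatives. The change at 1.5 h was -0.05 ± 0.18 (edgeR adjusted p = 0.888), and without replicate 3 of that group the gene was called lower, at -0.33 (edgeR adjusted p = 0.0478).

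Rela (ENSRNOG00000030888) encodes the subunit that carries the main transactivating activity of the canonical route. The controls had 132, 128 and 122 CPM, the 1.5 h libraries 143, 141 and 153, the 3 h libraries 217, 246 and 191, and the 6 h libraries 223, 241 and 248. Every treated library, those at 1.5 h included, was above every control, and the library standing apart was the highest at 1.5 h but the lowest at 3 and at 6 h. The change at 1.5 h was small, 0.19 ± 0.11, and not called (edgeR adjusted p = 0.338). At 3 h the change was 0.77 ± 0.11 (edgeR adjusted p = 0.00106) and at 6 h 0.89 ± 0.11 (edgeR adjusted p = 0.000375), and both calls were kept in all 18 alternatives.

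Relb (ENSRNOG00000033235), the partner of p52, was the least abundant subunit per length, in FPKM as given further on. Its levels were 40.6, 38.0 and 40.1 CPM in the controls, 30.2, 29.3 and 48.7 at 1.5 h, 63.2, 61.0 and 73.0 at 3 h, and 90.5, 61.9 and 77.1 at 6 h. The libraries at 3 and 6 h were all above the controls, and the 1.5 h group straddled them in the same way as for Nfkb2. The change was -0.13 ± 0.20 at 1.5 h (edgeR adjusted p = 0.722), 0.73 ± 0.20 at 3 h (edgeR adjusted p = 0.0285) and 0.95 ± 0.20 at 6 h (edgeR adjusted p = 0.00587). The 3 h call was lost when any 1 of the 6 libraries compared was left out (edgeR adjusted p of 0.0759 to 0.0993) and with library size scaling (0.188), whereas that at 6 h was kept in all 18 alternatives.

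Nfkb1 (ENSRNOG00000023258), the precursor of p50, was not called at any time. It had 359, 322 and 339 CPM in the controls, 217, 202 and 359 at 1.5 h, 311, 336 and 518 at 3 h, and 486, 343 and 325 at 6 h. In each treated group the library standing apart was the highest, and treated and control libraries overlapped at every time. The changes were -0.39 ± 0.26, 0.19 ± 0.26 and 0.18 ± 0.26 at 1.5, 3 and 6 h (edgeR adjusted p = 0.4, 0.609 and 0.62). Without the library apart at 1.5 h the level at that time was called lower (-0.70, edgeR adjusted p = 0.048), and without the library apart at 3 h or at 6 h the sign turned, to -0.14 and -0.03 with no call.

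**Figure D2:**
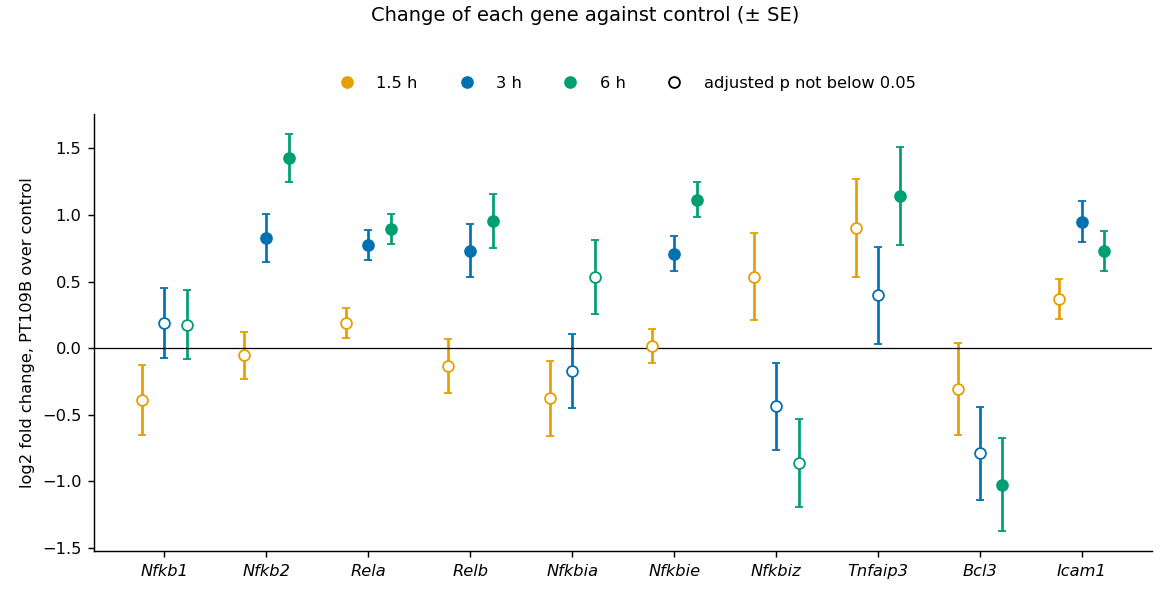
Log2 fold change (vertical axis, PT109B over control) of each gene at 1.5, 3 and 6 h, as the estimate ± SE of the edgeR fit with 3 libraries a group, with filled points for genes called at an adjusted p below 0.05. Nfkb2 reaches 1.43 at 6 h, Icam1 is higher at 3 h than at 6 h (0.95 and 0.73), and Bcl3 is the one gene called lower.

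Of the IkB genes, Nfkbie rose and Nfkbia did not pass the test against control. Nfkbie (ENSRNOG00000019907) encodes IkB epsilon, which holds RelA and c-Rel dimers. Its level was 84.2, 75.5 and 78.1 CPM in the controls, 70.4, 72.7 and 97.2 at 1.5 h, 121, 129 and 139 at 3 h, and 176, 174 and 164 at 6 h. The 3 treated groups did not overlap with each other in this gene, and those at 3 and 6 h lay wholly above the controls. The change was 0.01 ± 0.13 at 1.5 h (edgeR adjusted p = 0.96), 0.71 ± 0.13 at 3 h (edgeR adjusted p = 0.00426) and 1.11 ± 0.13 at 6 h (edgeR adjusted p = 0.00026). The 3 h call was lost with library size scaling (edgeR adjusted p = 0.0787) and kept whichever library was left out, and the 6 h call was kept in all 18 alternatives.

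Nfkbia (ENSRNOG00000007390) encodes IkB alpha, the inhibitor made quickly by NF-kB itself as negative feedback. It had 352, 306 and 349 CPM in the controls, 211, 192 and 373 at 1.5 h, 223, 252 and 418 at 3 h, and 539.9, 443 and 478 at 6 h. At 1.5 and 3 h a pair of libraries lay below every control and the library apart above every control, while at 6 h all 3 were above the controls. The changes were -0.38 ± 0.28, -0.17 ± 0.28 and 0.54 ± 0.28 (edgeR adjusted p = 0.439, 0.662 and 0.159). Without replicate 3 at 1.5 h the gene was called lower at that time (-0.74, edgeR adjusted p = 0.0398), and a fit of the 6 h and control groups alone called it higher at 6 h (0.51, edgeR adjusted p = 0.0188).

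Nfkbiz (ENSRNOG00000031163) encodes IkB zeta, a nuclear cofactor for a subset of NF-kB targets such as Il6. The controls had 205, 179 and 237 CPM, the 1.5 h libraries 219, 208 and 474, the 3 h libraries 154, 133 and 172, and the 6 h libraries 162, 91.9 and 88.0. The 3 and 6 h libraries were all below the controls, and replicate 3 at 1.5 h stood far above all other libraries. The changes were 0.54 ± 0.33 at 1.5 h, -0.43 ± 0.33 at 3 h and -0.86 ± 0.33 at 6 h, and none was called (edgeR adjusted p = 0.357, 0.342 and 0.0676). At 6 h the gene was called lower in 7 of 18 alternatives. Among these were the fit without replicate 1 of that group (-1.20, edgeR adjusted p = 0.0185), DESeq2 (-0.87, adjusted p = 0.033) and library size scaling (-1.05, edgeR adjusted p = 0.0493). The fit without replicate 1, the library apart, called 40.5% of all genes.

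Bcl3 (ENSRNOG00000043416) encodes another nuclear IkB protein, which binds p50 and p52 homodimers. Its levels were low, 29.8, 32.6 and 39.7 CPM in the controls, 23.4, 17.2 and 42.0 at 1.5 h, 15.5, 15.6 and 27.8 at 3 h, and 21.1, 16.8 and 12.2 at 6 h. All libraries at 3 and 6 h were below all controls, and at 1.5 h replicate 3 was above them. The change was -0.31 ± 0.34 at 1.5 h (edgeR adjusted p = 0.622), -0.79 ± 0.35 at 3 h (edgeR adjusted p = 0.12) and -1.02 ± 0.35 at 6 h (edgeR adjusted p = 0.0465). The 6 h call did not hold without any 1 of the controls, nor without the second or the third library at 6 h (edgeR adjusted p of 0.0791 to 0.152). It was kept without replicate 1 at 6 h, the library apart (0.0347), and at 3 h the gene was called lower without replicate 3 of that group (-1.19, edgeR adjusted p = 0.0335). Those fits called 40.5% and 38.7% of all genes.

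Tnfaip3 (ENSRNOG00000049517) encodes A20, a ubiquitin-editing enzyme that shuts off signalling to the IkB kinases. It had 98.5, 109 and 101 CPM in the controls, 154, 166 and 258 at 1.5 h, 84.0, 96.6 and 226 at 3 h, and 312, 179 and 190.3 at 6 h. All libraries were above the controls at 1.5 h and at 6 h, whereas at 3 h a pair lay below every control and the library apart far above them. The change was 0.90 ± 0.37 at 1.5 h (edgeR adjusted p = 0.201), 0.40 ± 0.37 at 3 h (edgeR adjusted p = 0.438) and 1.14 ± 0.37 at 6 h (edgeR adjusted p = 0.0387). The call at 6 h was lost when any 1 of the 6 libraries was left out (edgeR adjusted p of 0.0752 to 0.109) and with library size scaling (0.117). At 3 h the change was -0.25 without replicate 3 of that group, not called (edgeR adjusted p = 0.505).

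Icam1 (ENSRNOG00000020679) encodes an adhesion molecule for leukocyte integrins and is a classical NF-kB target. Its level was 162, 171 and 159 CPM in the controls, 217, 199 and 218 at 1.5 h, 356, 349 and 245 at 3 h, and 309, 253 and 251 at 6 h. Each of the 9 treated libraries was above each of the controls. The change at 1.5 h, 0.37 ± 0.15, was not called (edgeR adjusted p = 0.202). It was 0.95 ± 0.15 at 3 h (edgeR adjusted p = 0.00196) and 0.73 ± 0.15 at 6 h (edgeR adjusted p = 0.00516), and both calls were kept in all 18 alternatives. The library apart was the lowest at 3 h and the highest at 6 h, so for this gene it did not lie to the same side at both times.

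The libraries that stand apart set much of the spread of these genes, so the fit was repeated without them, with 2 libraries in each treated group against 3 controls. Leaving out libraries for being unlike the others narrows the spread by construction, and 59.2% of all genes tested were then called at 1.5 h, 70.9% at 3 h and 75.1% at 6 h. The median of all genes was -0.13 at 3 h and -0.15 at 6 h in this fit. Of the members, 2 were called higher and 5 lower at 1.5 h, 5 higher and 4 lower at 3 h, and 7 higher and 2 lower at 6 h. Of all 9523 genes tested, 2734 were called higher and 2908 lower at 1.5 h, 2989 and 3767 at 3 h, and 3169 and 3985 at 6 h. At 1.5 h Icam1 (0.34) and Tnfaip3 (0.63) were the 2 called higher, and Nfkb1 (-0.70), Nfkb2 (-0.33), Relb (-0.41), Nfkbia (-0.74) and Bcl3 (-0.76) were called lower. At 3 h Nfkbia (-0.56), Nfkbiz (-0.59), Bcl3 (-1.19) and Tnfaip3 (-0.25) were called lower, while the 5 genes called higher with all libraries remained so. At 6 h Nfkbia was called higher (0.37), and Bcl3 and Nfkbiz were called lower (-1.31 and -1.29). The pair of libraries used at 1.5 h are those with low microglia markers and high fibroblast markers, given above, and the part of these in the member levels was not tested.

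**Figure D3:**
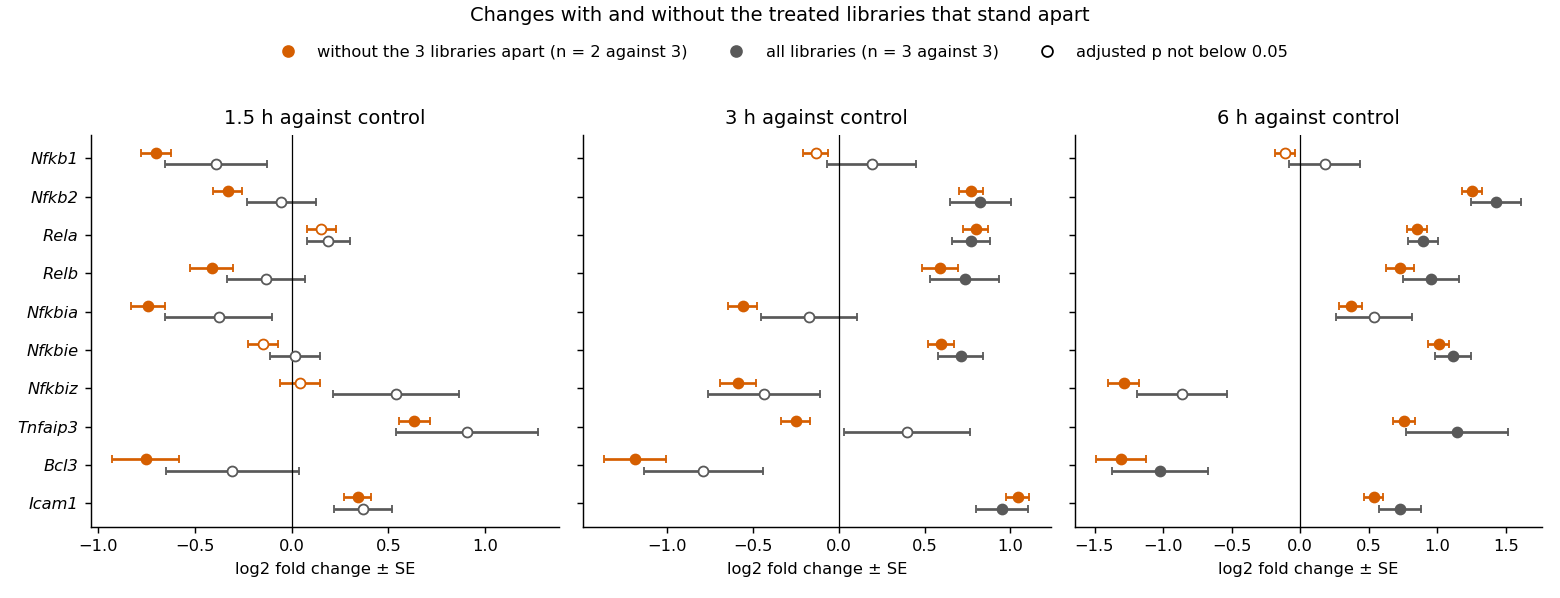
Log2 fold change ± SE (horizontal axis) of each gene against control at 1.5, 3 and 6 h, without the 3 treated libraries that stand apart (orange, 2 libraries against 3) and with all libraries (grey, 3 against 3), with filled points for genes called at an adjusted p below 0.05. At 3 h Tnfaip3 lies at -0.25 without these libraries and at 0.40 with them, whereas Rela and Icam1 differ little between the fits.

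Comparisons between times describe how the libraries taken at those times differed. The 1.5 h group holds the pair with low microglia and high fibroblast markers, and the part of these in the differences was not tested. From 1.5 h on, the libraries at 3 h had higher Nfkb2 (0.88 ± 0.18), Rela (0.58 ± 0.11), Relb (0.87 ± 0.20), Nfkbie (0.70 ± 0.13) and Icam1 (0.58 ± 0.15), all 5 called by edgeR with adjusted p of 0.00851 to 0.0267, where 12.1% of all genes were called higher. Each of the 5 was higher in 3 of 3 libraries at 3 h than in every library at 1.5 h, as were 17.7% of all genes. A fit of the 2 groups alone called 0 of them, as did a fit without replicate 2 at 3 h, and fits without replicate 1 or 2 at 1.5 h or replicate 1 at 3 h called 2. At 6 h against 3 h 0 members were called by edgeR, where 4.05% of all genes were, and 3 had an unadjusted p below 0.05, where 19.1% of all genes did, namely Nfkb2 (0.60 ± 0.18), Nfkbia (0.71 ± 0.28) and Nfkbie (0.40 ± 0.13). DESeq2 called 1, Nfkb2, where it called 8.87% of all genes, and without replicate 3 at 3 h edgeR called 1, Tnfaip3, and 8.25% of all genes. At 6 h against 1.5 h 5 members were called higher, where 20.5% of all genes were. They were Nfkb2 (1.48 ± 0.18), Rela (0.70 ± 0.11), Relb (1.09 ± 0.20), Nfkbie (1.10 ± 0.13) and Nfkbia (0.91 ± 0.28, edgeR adjusted p = 0.0264), and Nfkbiz was called lower (-1.40 ± 0.33, edgeR adjusted p = 0.00881), where 17.1% of all genes were. For Nfkbiz the value without replicate 3 at 1.5 h was -0.90 (edgeR adjusted p = 0.0112), and the fit of the 2 groups alone lost the call (edgeR adjusted p = 0.0531). The call of Nfkbia was lost without replicate 1 or 2 at 1.5 h and without any 1 of the 6 h libraries (edgeR adjusted p of 0.0545 to 0.104). With library size scaling the genes called were 563 higher and 1485 lower at 3 h against 1.5 h (TMM 1148 and 781), where Relb, Nfkbie and Icam1 lost their calls. They were 382 and 132 at 6 h against 3 h (TMM 221 and 163) and 1495 and 1974 at 6 h against 1.5 h (TMM 1946 and 1625). Whether the replicate numbers pair libraries is not known. A block on them gave 201 genes called at 1.5 h against control in place of 315 and 1243 at 3 h against 1.5 h in place of 1929. In these comparisons the block called as many members as the fit without it.

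Levels of different genes can be set side by side only per length, in FPKM as deposited. In controls Nfkbia was highest, at 161 ± 11.9 FPKM (SD, n = 3 here and below), and was followed by Nfkb1 (66.9 ± 3.41), Icam1 (46.8 ± 1.96), Rela (38.6 ± 1.66) and Nfkbiz (38.1 ± 5.22). Below these came Nfkb2 (27.9 ± 0.564), Nfkbie (23.3 ± 1.21), Tnfaip3 (16.1 ± 0.828), Bcl3 (14.3 ± 2.09) and Relb (13.1 ± 0.414), and the neighbours Rela and Nfkbiz, Tnfaip3 and Bcl3, and Bcl3 and Relb lay within their spread. At 6 h Nfkbia was again highest (206 ± 37.3), and Icam1 (68.2 ± 13.9), Nfkb1 (66.9 ± 20.9), Nfkb2 (66.0 ± 13.0) and Rela (62.5 ± 2.05) then lay within the spread of each other. Bcl3 was lowest at that time, at 6.21 ± 2.09 FPKM.

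Ratios within a library do not depend on how libraries are scaled. The ratio of Nfkb2 to Nfkb1 in FPKM was 0.405, 0.43 and 0.417 in the controls, 0.503, 0.571 and 0.513 at 1.5 h, 0.828, 0.736 and 0.482 at 3 h, and 0.885, 1.00 and 1.14 at 6 h. All 9 treated libraries, those standing apart included, were above all controls. The mean ratio was 0.529 ± 0.0369, 0.682 ± 0.179 and 1.01 ± 0.128 at 1.5, 3 and 6 h, against 0.417 ± 0.0129 in controls, and each exact two-sided permutation test gave p = 0.1, the smallest that 3 against 3 libraries allow. The ratio of the inhibitor Nfkbia to Rela was 4.22, 3.79 and 4.54 in controls, 2.35, 2.16 and 3.88 at 1.5 h, 1.63, 1.63 and 3.48 at 3 h, and 3.85, 2.92 and 3.06 at 6 h. It was below every control in 3 of 3 libraries at 3 h (mean 2.25 against 4.18, exact permutation p = 0.1), and in 2 of 3 libraries at 1.5 h and at 6 h (exact permutation p = 0.2 for each). Between the IkB genes, Nfkbie over Nfkbia was above every control in all libraries at 3 and 6 h, with means of 0.296 ± 0.0694 and 0.235 ± 0.0162 against 0.145 ± 0.0163. Relb over Rela overlapped with the controls at every time (exact permutation p = 0.3, 0.8 and 0.8). With 4 ratios at 3 times there were 12 such tests, none of which could reach 0.05.

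**Figure D4:**
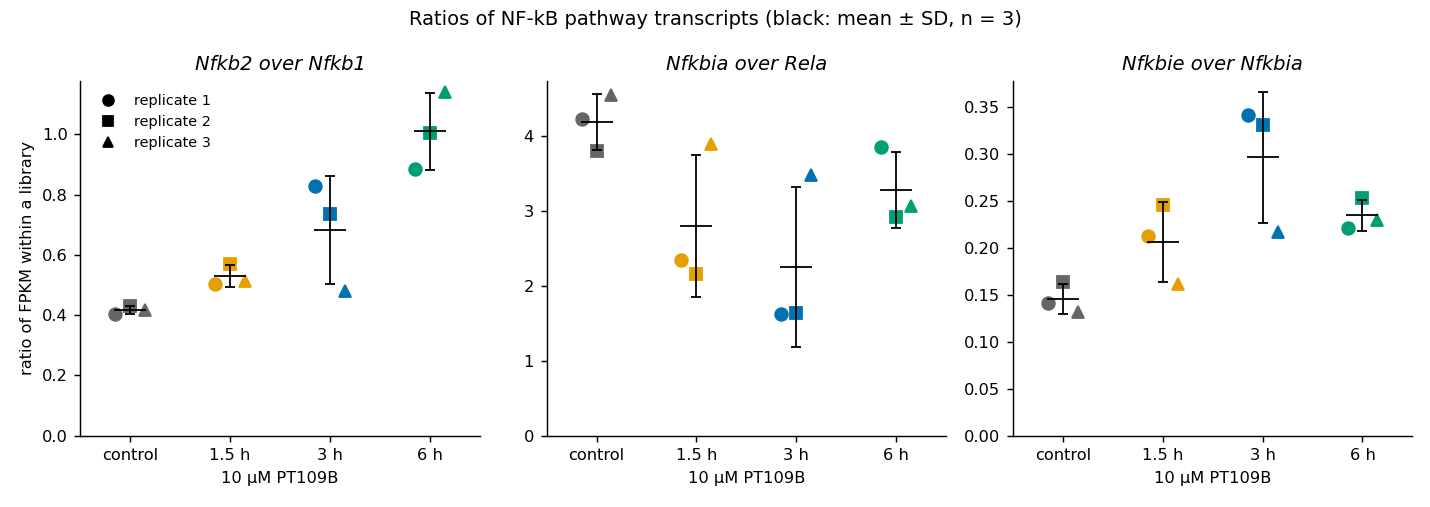
Ratio of FPKM within each library (vertical axis, from 0) for Nfkb2 over Nfkb1, Nfkbia over Rela and Nfkbie over Nfkbia, by group from control to 6 h of 10 µM PT109B, with the mean ± SD of 3 libraries in black. Nfkb2 over Nfkb1 is above the controls in all 9 treated libraries and averages 1.01 at 6 h, and the ratio of Nfkbia to Rela at 3 h is 1.63 in replicates 1 and 2 and 3.48 in replicate 3.

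Other genes of the pathway were taken from a list of 89 by role, of which 75 were tested. At 1.5 h 3 were called higher and 3 lower, at 3 h 13 and 2, and at 6 h 18 and 4, with medians of the log2 fold change of -0.32, 0.01 and 0.13. The shares called higher over all genes were 1.95%, 13.5% and 18.7%, so that at 3 and 6 h the list, with 13 and 18 of 75, lay near them. Of the 30 targets 3, 8 and 10 were called higher and 0 lower at the 3 times, and the difference between roles was not tested. With library size scaling 4 targets were called higher and 2 lower at 3 h, and at 1.5 and 6 h none lower. The whole list then had 5 higher and 14 lower at 3 h and 12 and 9 at 6 h. Without the 3 libraries apart it had 11 higher and 55 lower at 1.5 h, 19 and 35 at 3 h, and 24 and 33 at 6 h. Of all 9523 genes tested in that fit, 2734 were called higher and 2908 lower at 1.5 h. At 3 h these were 2989 and 3767, and at 6 h 3169 and 3985. The genes named next are, for each role and time against control, the called genes with the largest changes, up to 3. Tnf is named besides, from 6 h against 1.5 h, and other genes called between times are not described.

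Of the targets, Ptgs2, the inducible cyclooxygenase, had 475 ± 29.2, 556 ± 295 and 429 ± 159 CPM at 1.5, 3 and 6 h, against 64.4 ± 3.66 CPM in controls. Its log2 changes of 2.88, 3.11 and 2.73 were called in every alternative. Gadd45b, a stress-induced gene that limits cell death, was higher at 1.5 and 3 h (1.34 and 1.47), also in every alternative. Irf1, an interferon regulatory factor, was called higher at 1.5 h (0.89), a call lost without any 1 control or without replicate 2 at 1.5 h (edgeR adjusted p up to 0.0784). The neutrophil chemokine Cxcl2 had 196 ± 33.5 CPM at 6 h, against 38.9 ± 4.91 CPM in controls (2.34 ± 0.34, edgeR adjusted p = 0.000893). Il6, a cytokine whose induction uses IkB zeta, was at 10.7 ± 4.33 CPM at 3 h and 21.0 ± 3.03 CPM at 6 h, against 2.77 ± 1.22 CPM in controls (log2 changes of 1.96 and 2.93). The 3 h call of Il6 was lost without replicate 2 at 3 h (edgeR adjusted p = 0.0671). Tnf, the cytokine that opens the canonical route, was higher at 6 h than at 1.5 h (2.95 ± 0.63, edgeR adjusted p = 0.00568). It had 37.6 to 52.9 CPM in controls, 6.44 and 9.10 CPM in the 1.5 h pair with low microglia markers and 47.0 CPM in the library apart, 79.1 to 139 CPM at 3 h and 147 to 186 CPM at 6 h. The libraries at 3 and 6 h were all above the controls, and the 1.5 h pair was below them.

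**Figure D5:**
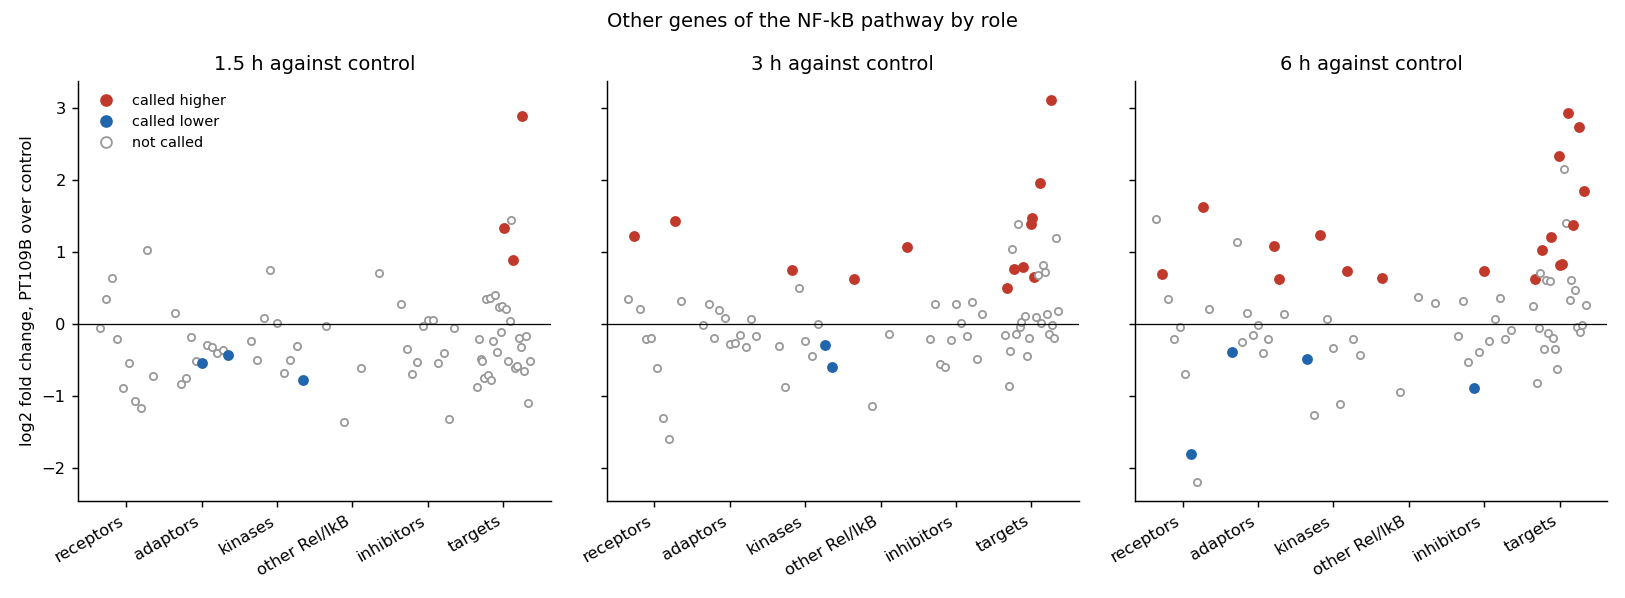
Log2 fold change (vertical axis, PT109B over control) of the 75 other pathway genes tested, grouped by role on the horizontal axis, at 1.5, 3 and 6 h, with red for genes called higher, blue for genes called lower and open grey for the rest. Of the 30 targets 3, 8 and 10 are called higher and none lower (with library size scaling 4 higher and 2 lower at 3 h), with Ptgs2 the highest point at 1.5 and 3 h.

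Upstream of the members, 2 of 10 receptor genes were called higher at 3 h and 2 at 6 h, close to the 13.5% and 18.7% of all genes. Il1r1, the interleukin 1 receptor, had 265 ± 25.9 CPM at 3 h and 183 ± 10.8 CPM at 6 h, against 113 ± 10.5 CPM in controls (1.23 and 0.69, called in every alternative). Tnfrsf12a, the receptor of TWEAK and a starter of the noncanonical route, was called higher at 3 and 6 h (1.43 and 1.63), but at 3 h the call was lost without any 1 control or without replicate 1 or 2 of the 3 h group (edgeR adjusted p up to 0.135) and with library size scaling, and at 6 h without control replicate 2 or 3 or replicate 2 or 3 of the 6 h group (up to 0.0778). Tlr4, the receptor for lipopolysaccharide, which microglia express strongly, was called lower at 6 h (-1.80 ± 0.53), with 5.01 ± 0.29 CPM against 17.5 ± 0.586 CPM in controls. At 1.5 h it had 3.62 and 3.53 CPM in the pair with low microglia markers and 17.9 CPM in replicate 3, and the part of the cell makeup in its level was not tested. The 6 h call of Tlr4 was lost without any 1 control and without replicate 2 or 3 at 6 h (edgeR adjusted p up to 0.0829).

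Among adaptors and kinases the changes went both ways. Ikbkg, the regulatory subunit NEMO of the IkB kinase complex, had 40.4 ± 2.69 CPM at 3 h and 57.0 ± 5.57 CPM at 6 h, against 24.1 ± 1.80 CPM in controls (0.74 and 1.24), and at 6 h it was called in every alternative, whereas at 3 h the call was lost with library size scaling. Ikbkb, the catalytic subunit IKK beta, was called lower at 6 h (-0.48 ± 0.14, edgeR adjusted p = 0.0248), and that call was lost without any 1 control and without replicate 2 or 3 at 6 h (edgeR adjusted p up to 0.0733). Tbk1, a kinase of interferon signalling, was called lower at 1.5 h (-0.78) and 3 h (-0.60), and both calls were lost without control replicate 1 or 3 and without replicate 1 or 2 of the treated group (edgeR adjusted p up to 0.135 and 0.0946). Ripk1 and Traf3, which relay receptor signals, were called lower at 1.5 h (-0.53 and -0.43), calls that were kept only without replicate 3 at 1.5 h among the fits leaving out a library of either group (edgeR adjusted p up to 0.0952 and 0.202). The call of Traf3 was also lost with the replicate block (edgeR adjusted p = 0.0827) and with RLE scaling. At 6 h Traf2 (0.63), Traf1 (1.08) and Tab1 (0.73), adaptors of TNF receptor and TAK1 signalling, were called higher, and Irak1 (-0.39), a kinase of interleukin 1 receptor signalling, was called lower. All 4 of these calls were lost without at least 1 library, replicate 3 at 6 h for Traf2 and Tab1 (edgeR adjusted p = 0.0587 and 0.0504), each of the 6 for Traf1 (up to 0.116) and each control for Irak1 (up to 0.0791). With library size scaling the calls of Traf1, Traf2 and Tab1 were lost as well. Tab2 at 3 h, another TAK1 adaptor, was called lower by 0.29 on the log2 scale (-0.29), a call lost without any 1 control or without replicate 1 at 3 h (edgeR adjusted p up to 0.145).

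Of the remaining Rel and IkB genes, Rel, which encodes c-Rel, was called higher at 3 h (1.07 ± 0.33), and Nfkbib, which encodes IkB beta, at 3 and 6 h (0.63 at both). These calls were lost without any 1 control and without replicate 1 or 2 at 3 h, and for Nfkbib at 6 h without replicate 2 or 3 of that group (edgeR adjusted p up to 0.162, 0.154 and 0.109). They were also lost with library size scaling. The role listed as inhibitors is mixed, with genes that remove, build or bind ubiquitin chains, and not all of them restrain the pathway. Rnf31 of this role, the catalytic subunit of the linear ubiquitin ligase, is no inhibitor but promotes canonical signalling. It was called higher at 6 h (0.73 ± 0.13) in every alternative. Otulin, which cleaves linear ubiquitin chains, was called lower at 6 h (-0.89 ± 0.23, edgeR adjusted p = 0.0171), with 57.8 ± 6.04 CPM against 107 ± 14.7 CPM in controls. That call was lost without control replicate 3 or replicate 2 at 6 h (edgeR adjusted p up to 0.0642).

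As a description over the 12 libraries, the genes whose level moved most like Nfkb2 were ranked by the root mean square difference in log2 CPM from the control mean, among 8912 genes with a mean of at least 2 CPM. The closest 5 were Tmem132e (0.152), Ttc39b (0.164), Tk2 (0.188), Rpia (0.192) and Smox (0.192). Nfkbie came at rank 6 and Relb at rank 21, while Nfkb1 was at rank 2711. For Icam1 the closest 5 were Lrp12 (0.169), Tinf2 (0.169), Rell1 (0.173), Fam107b (0.176) and Arhgef2 (0.181), with Rela at rank 14 and Nfkbia at rank 4611.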

How the data were processed

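RNA-seq values of 12 libraries were used, 3 in each of 4 groups taken from the labels. Per the file headers, the authors deposited 1 table holding FPKM and a count for every gene and library. The deposited counts are estimated counts, as their decimals show, made by the authors with no scaling stated. Per the submitters' processing notes StringTie 2.2.1 was used. Which aligner, genome version and gene models were used is not given in the sources used here. Whole counts had been assumed, but 9.49% of the count values were not whole and were rounded. The table holds part of a rat's genes, so adjusted p-values refer to these genes.

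In R 4.3.3, edgeR 4.0.16 (filterByExpr, which removed 230 genes, TMM, robust quasi-likelihood test, group as the only term) was fitted to all 12 libraries. The fit was tested on simulated data. Those counts were drawn independently for each library, with no library standing apart, so the test cannot tell how the fit handles such libraries. CPM use TMM-scaled library sizes, and log2 fold changes a prior count of 0.125. Alternatives were other scalings and filters, the replicate block, fits of 2 groups, DESeq2 1.42.0, limma 3.58.1 (limma-trend on log2 FPKM with pseudocounts of 1 or 0.1) and leaving out libraries. Same-numbered libraries deviated from their group means together at 1.5 h and control (correlations of 0.151, 0.33 and 0.412) and at 3 and 1.5 h (0.146, 0.153 and 0.206). The labels name no pairing, and these correlations cannot show it. Deviations from a mean of 3 libraries are not independent, and the library apart was replicate 3 at both 1.5 and 3 h. The replicate block was therefore kept as an alternative only. Members, gene lists, motifs and the libraries left out together were chosen with earlier results of these data known. Named other pathway genes are, per role and comparison against control, up to 3 called genes with the largest change. Of the genes so selected in comparisons between times, Tnf was picked out, and the others were not described. Promoter sequences are from RefSeq (GRCr8).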

Additional observations from a re-analysis of the deposited data

Results flagged for a closer look

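Differences between times were tested within the same fit, so a called contrast between 2 treated times means that the changes against control at those times differ. At 3 h against 1.5 h this held for Nfkb2 (0.88), Rela (0.58), Relb (0.87), Nfkbie (0.70) and Icam1 (0.58), where 12.1% of all genes were called higher. A fit of the 2 groups alone called 0 members there, and Relb, Nfkbie and Icam1 lost their calls with library size scaling. At 6 h against 1.5 h the changes differed for Nfkb2 (1.48), Rela (0.70), Relb (1.09), Nfkbia (0.91), Nfkbie (1.10) and Nfkbiz (-1.40), where 20.5% of all genes were called higher and 17.1% lower. Nfkbia lost that call in 11 of the 18 alternatives. The values in brackets are log2 differences of the main fit, later time over earlier, each with an edgeR adjusted p below 0.05. For Nfkbiz the value was -0.90 without replicate 3 at 1.5 h. At 6 h against 3 h no member was called by edgeR. At 1.5 h the pair of libraries with low microglia markers also held the lowest levels of Nfkb2, Relb, Nfkbia and Nfkbie among the groups compared, and the part of the cell makeup in these differences was not tested.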

How the results depend on the processing

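Of 1080 values of single members under alternatives, 918 kept direction and side of the threshold, 76 lost the call, 48 gained it and 38 turned sign. Leaving out 1 library gave 115 to 2871 genes called at 1.5 h against control, 849 to 3697 at 3 h, 1741 to 3868 at 6 h, 422 to 4051 at 3 h against 1.5 h, 41 to 788 at 6 h against 3 h and 2257 to 5002 at 6 h against 1.5 h. For the members the ranges were 0 to 3, 3 to 5, 5 to 7, 0 to 6, 0 to 1 and 5 to 7. Leaving out the 3 libraries apart gave 5642, 6756, 7154, 6655, 3251 and 7242 genes and 7, 9, 9, 8, 6 and 9 members in the same order. The replicate block gave 201 genes at 1.5 h, 1243 at 3 h against 1.5 h and 159 at 6 h against 3 h. In the last of these the deviations of same-numbered libraries correlated at -0.598, 0.531 and -0.598, and the library apart was replicate 1 at 6 h and replicate 3 at 3 h. With the block Bcl3 lost its call at 6 h (edgeR adjusted p = 0.0521), and no other member gained or lost a call. A fit of 2 groups gave 76, 7 and 2142 genes at 3 h against 1.5 h, 6 h against 3 h and 6 h against 1.5 h, and 0 members at the first and 4 at the last. DESeq2 gave 801 genes at 1.5 h and 842 at 6 h against 3 h, with 1 member there. Scaling by library size or by depth gave 2 members at 3 h, and library size gave 3 at 3 h against 1.5 h. The cause was not tested.

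Signs turned as follows, always where the main value was not called. Nfkbie at 1.5 h was -0.063 with library size scaling, -0.060 with depth scaling, -0.021 and -0.022 in the limma fits and -0.15 without the 3 libraries. Nfkb1 at 3 h was -0.088 and -0.060 with these scalings, -0.13 with limma and -0.14 without the 3. At 6 h it was -0.025, -6.24e-05, -0.041 and -0.042 with limma, and -0.11. At 6 h against 3 h it was 0.063 and 0.060 with these scalings, 0.021 with the replicate block, 0.0098 in the fit of 2 groups, 0.090 and 0.091 with limma and 0.023 without the 3. Tnfaip3 at 3 h was -0.013 and -0.023 with limma and -0.25 without the 3. Leaving out 1 library, ranges across 0 were -0.33 to 0.080 (Nfkb2, 1.5 h), -0.15 to 0.10 (Nfkbie, 1.5 h), -0.14 to 0.30 (Nfkb1, 3 h), -0.25 to 0.63 (Tnfaip3, 3 h) and -0.026 to 0.22 (Nfkb1, 6 h). Between times they were -0.21 to 0.57 (Nfkbia, 3 h against 1.5 h), -0.22 to 0.24 and -0.44 to 0.10 (Nfkb1 and Bcl3, 6 h against 3 h) and -0.059 to 0.51 (Tnfaip3, 6 h against 1.5 h).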
